A study of Mus musculus with 64 samples.

Results

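The genes described here are 10 markers of disease-associated microglia, a transcriptional state of the resident macrophages of the brain. They were Apoe, Trem2, Tyrobp, Cst7, Lpl, Clec7a, Itgax, Spp1, Axl and Cd9, and they were taken by name from a list drawn up with earlier results of these data known. All 10 were present among the 49671 genes of the count table, and all 10 passed the filter on low counts in each comparison. Microglia take up this state around amyloid plaques, in demyelination and in ageing, when genes of lipid handling, lysosomes and phagocytosis rise and genes of the resting, or homeostatic, state fall. The receptor TREM2 and its signalling adaptor TYROBP act as a checkpoint on the way to the full state. APOE and LPL carry and hydrolyse lipids, AXL and CLEC7A recognise dying cells and fungal sugars, and SPP1 and CST7 are a secreted matrix protein and a protease inhibitor.

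Total RNA was sequenced from microglia of the hippocampus and the frontal cortex of male mice aged 9 to 10 weeks, of the strain C57BL/6 in the labels and C57BL6/N in the methods, and no transgene, deletion or drug is named for any group. The 64 libraries formed 16 groups of 4, from 2 regions, a day and a night phase, and the conditions Soci, Cogn, Ctr0 and Ctr1, whose names are used as given because their meaning was not stated in the labels. Cells were selected with magnetic beads against CD11b after cold mechanical dissociation, so macrophages of the brain borders and other myeloid cells that carry CD11b pass the same selection. CD11b is the product of Itgam, and none of the 10 markers was used to select cells. The mice were kept on a reversed light cycle, with lights off through the daytime hours of the clock in the methods, and tissue was taken at zeitgeber times 4 and 16 h. The labels do not say whether the day libraries are those of the light phase. Day and night are therefore used as label names and are not equated with light and dark. Clock genes differed between the labels in both regions. Cry1 was higher in day than in night libraries by 1.29 and 1.25 on the log2 scale in hippocampus and frontal cortex. Per2 was higher in day libraries by 1.12 and 1.27, and Nr1d1 was lower by 1.87 and 1.84. These values show that the labels separate phases of the clock. They were not used to assign a label to zeitgeber time 4 or 16 h. The labels do not tie libraries to separate animals, so the p-values measure the spread between libraries, which may be in part technical.

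Library totals ran from 10.2 to 84.5 M counts, and the 96 pairs of libraries within a group differed by more than sampling noise. Homeostatic microglia genes were abundant in all libraries, with the sum of 15 of them (P2ry12, Tmem119, Cx3cr1 and others) between 16754 and 35766 CPM, the count of a gene relative to the scaled total of its library. Marker sums of other cells were lower and varied. Genes of border macrophages (Mrc1, Lyve1 and 8 others) summed to between 693 and 1596 CPM, astrocyte genes to between 279.8 and 2469 CPM, and choroid plexus genes (Ttr, Folr1 and 4 others) to between 1.73 and 2819 CPM. No gene of these lists was at 0 in all libraries. In these bulk libraries fewer cells of a type and less RNA per cell cannot be told apart.

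The 10 genes covered a wide range of levels. Levels are given as CPM after scaling by the trimmed mean of M-values (TMM), and levels of different genes are compared only per kilobase of exon. Exon length was the union of all annotated exons, with 667 bases for Tyrobp, 4946 for Trem2 and 10478 for Lpl. The order of the genes depends on these lengths, which may exceed those of the transcripts present. Per kilobase, Tyrobp was highest at 155 CPM, followed by Apoe at 97.4, Cd9 at 65.2 and Trem2 at 64.6 CPM (means over 64 libraries). The means of Cd9 and Trem2 lay within 1 SD of each other, while the steps from Tyrobp to Apoe and from Apoe to Cd9 were larger than either SD. The other 6 genes were far lower, with Axl at 3.87, Clec7a at 3.16, Itgax at 1.81, Spp1 at 1.40, Cst7 at 0.980 and Lpl at 0.963 CPM per kilobase. Among these last 6 the step from Clec7a to Itgax was larger than either SD over libraries, the other neighbours differed by less than the larger SD of the pair, and Cst7 and Lpl were almost level. The depth behind the values differed accordingly, from 2822 to 33715 reads per library for Trem2 down to 4 to 74 reads for Cst7 and 6 to 299 for Spp1.

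Spread between libraries ran from 10.5% of the mean for Trem2 to 108% for Spp1 (coefficient of variation, 64 libraries). Between the lowest and the highest library, Trem2 differed 1.62-fold, from 254 to 411 CPM, and Spp1 differed 31.9-fold, from 0.457 to 14.6 CPM. Lpl came after Spp1, with 42.4% of its mean. By this measure Trem2 was the steadiest of the 10 genes and Spp1 the most variable. The measure includes counting noise, which weighs more on Spp1 (6 to 299 reads per library) than on Trem2 (2822 to 33715 reads). High values of Spp1, above 3 CPM, were limited to 7 libraries.

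**Figure D1:**
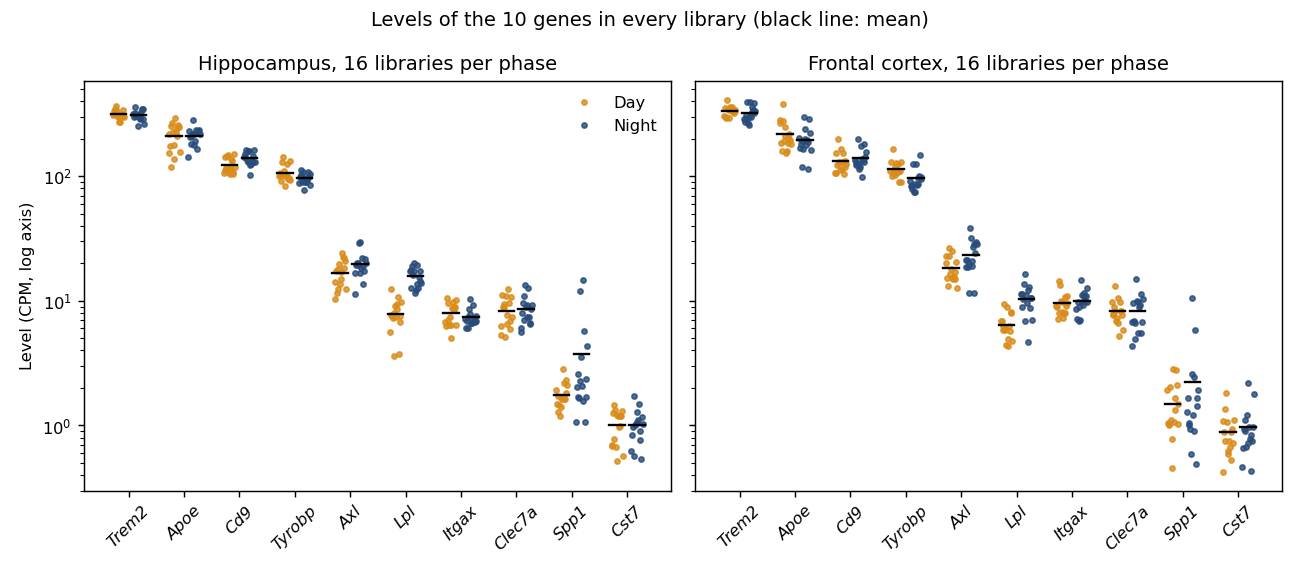
Levels of the 10 markers in hippocampus and frontal cortex, in CPM on a log axis, with 1 point per library (16 day and 16 night libraries per region) and a black line at each mean. Tyrobp, Apoe, Cd9 and Trem2 sit near or above 100 CPM in nearly all libraries, Spp1 and Cst7 near 1 CPM, and Spp1 has single night libraries far above the others.

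In the mouse genome (GRCm38, GENCODE M21) 4 of the 10 genes lie on chromosome 7. They are Apoe (ENSMUSG00000002985, chr7:19696109-19699188, minus strand), Axl (ENSMUSG00000002602, chr7:25757273-25788705, minus), Tyrobp (ENSMUSG00000030579, chr7:30413760-30417585, plus) and Itgax (ENSMUSG00000030789, chr7:128129547-128150657, plus). Chromosome 6 holds Cd9 (ENSMUSG00000030342, chr6:125460266-125494791, minus) and Clec7a (ENSMUSG00000079293, chr6:129461591-129472779, minus), and the annotation gives Clec7a the biotype polymorphic pseudogene. Trem2 (ENSMUSG00000023992) is at chr17:48346401-48354147 on the plus strand, and Cst7 (ENSMUSG00000068129) at chr2:150570415-150578944, plus. Lpl (ENSMUSG00000015568) is at chr8:68880491-68907448, plus, and Spp1 (ENSMUSG00000029304) at chr5:104435118-104441050, plus. Values are sums over all exons of a gene, untranslated parts included. Spp1 shares 309 exon bases with the predicted gene Gm42793 on the same strand, so a part of its reads may have been left uncounted or given to that gene, and its level is uncertain to that extent. Cd9 shares 218 bases with Gm26728 on the opposite strand.

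RefSeq promoter windows (GRCm38.p6) were found for 8 of the 10 genes, 12 windows in all, and not for Tyrobp and Lpl. The 250 bases before the start of transcription are shown for Spp1 and Axl, which differed between day and night in 1 region each, and for Itgax, which differed between regions. In the Spp1 window a match to GAGGAAGT, a core of the sites bound by the myeloid factor PU.1, is in capitals and starts 113 bases before the start of transcription.
Spp1 promoter, chr5:104434861-104435110, plus strand: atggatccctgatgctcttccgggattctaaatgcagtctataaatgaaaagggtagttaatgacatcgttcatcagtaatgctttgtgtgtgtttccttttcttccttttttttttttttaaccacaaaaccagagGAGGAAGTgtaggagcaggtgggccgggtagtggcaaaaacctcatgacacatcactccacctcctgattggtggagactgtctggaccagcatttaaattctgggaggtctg
Axl promoter, chr7:25788734-25788983, minus strand: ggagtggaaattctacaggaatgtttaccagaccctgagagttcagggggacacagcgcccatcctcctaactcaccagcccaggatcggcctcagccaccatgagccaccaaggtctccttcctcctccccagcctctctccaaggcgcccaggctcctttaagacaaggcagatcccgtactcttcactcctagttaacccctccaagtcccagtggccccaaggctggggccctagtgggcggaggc
Itgax promoter, chr7:128129300-128129549, plus strand: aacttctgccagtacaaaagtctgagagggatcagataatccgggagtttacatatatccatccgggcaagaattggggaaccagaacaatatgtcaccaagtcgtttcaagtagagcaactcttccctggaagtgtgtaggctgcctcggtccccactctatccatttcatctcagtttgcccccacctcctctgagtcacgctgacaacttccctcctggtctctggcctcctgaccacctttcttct
Each window was searched on both strands for 3 motifs, none of which contains another. GAGGAAGT was in 1 of the 12 windows of the markers, that of Spp1, and in 2.44% of all 32851 windows of this length. The E-box CACGTG, bound by the clock factors CLOCK and BMAL1, was in 6.02% of all windows and in none of the 12. The D-box TTATGTAA, bound by DBP and its relatives, was in 0.819% of all windows and likewise in none of the 12. These matches describe letters in these windows only.

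The title of the series names a profile of microglial transcripts by day and by night, so these phases are compared first. Of the 10 markers, 3 passed the test between day and night in each region. Lpl fell in day libraries in both regions, Tyrobp rose in both by a small amount, Spp1 fell in hippocampus and Axl fell in frontal cortex. The other 6 genes, Apoe, Trem2, Cst7, Clec7a, Itgax and Cd9, passed in neither region. The test was the quasi-likelihood F test of edgeR over 16 day and 16 night libraries per region, with p-values adjusted over all genes tested. Day and night differed widely, with 42.1% of 15527 genes past an adjusted p of 0.05 in hippocampus (23.5% higher in day, 18.7% lower) and 41.9% of 14975 in frontal cortex (20.7% higher, 21.3% lower). The 3 of 10 markers in each region are thus below the share over all genes. The median log2 change of the 10 markers was 0.02 in hippocampus, as over all genes (0.02), and -0.08 in frontal cortex against -0.02 over all genes.

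**Figure D2:**
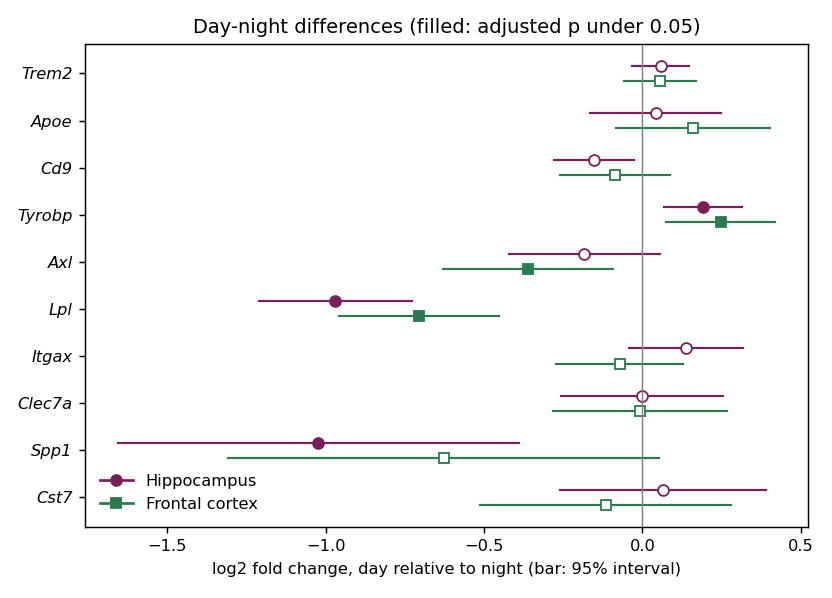
Log2 change of day against night for the 10 markers in hippocampus and frontal cortex, as points with 95% intervals from edgeR, with genes past an adjusted p of 0.05 filled. Lpl lies below 0 in both regions at -0.97 and -0.71, and the intervals of Apoe, Trem2, Cst7, Clec7a and Itgax include 0 in both.

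Lpl encodes lipoprotein lipase, which releases fatty acids from triglyceride-rich lipoproteins and is secreted by macrophages. In hippocampus the lowest, median and highest of the 16 day libraries were 3.60, 7.61 and 12.5 CPM, and those of the 16 night libraries were 11.5, 15.9 and 20.2 CPM. All but 1 day library lay below the lowest night library, and 14 of 16 night libraries lay above the highest day library. The exception was Day Ctr0 replicate 1, which was itself the highest day library. On average Lpl stood at 7.83 ± 2.31 and 15.7 ± 2.78 CPM in day and at night (± SD, 16 libraries each), a log2 change of -0.97 ± 0.12 (SE), adjusted p = 2.02e-07 in edgeR.

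In frontal cortex the day libraries of Lpl ran over 4.35, 6.11 and 9.51 CPM (lowest, median and highest) and the night libraries over 4.66, 10.6 and 16.3 CPM. The groups overlapped more than in hippocampus, but all 16 day libraries were below the night median and 11 of 16 night libraries were above the highest day library. The log2 change was -0.71 ± 0.13 (SE), adjusted p = 6.5e-05 in edgeR. The day mean was below the night mean in all 4 conditions in each region, and also at each of the 4 replicate numbers. The change in hippocampus minus that in frontal cortex was -0.30 ± 0.18 (SE), adjusted p = 0.632, so a difference between the regions was not shown, and 1.17% of all genes passed this test.

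Within conditions, at 4 against 4 libraries, Lpl passed in 5 of 8 comparisons. In hippocampus its log2 change was -1.30 (adjusted p = 0.00155) in Soci, -0.98 (adjusted p = 0.0137) in Cogn and -1.03 (adjusted p = 0.00778) in Ctr0, and -0.58 (adjusted p = 0.103) in Ctr1, where it did not pass. In frontal cortex it was -1.04 (adjusted p = 0.0120) in Ctr0 and -0.95 (adjusted p = 0.0207) in Ctr1, with -0.48 (adjusted p = 0.200) in Soci and -0.28 (adjusted p = 0.509) in Cogn. The shares of all genes past the same test were 7.96%, 5.28%, 13.1% and 12.4% in hippocampus for Soci, Cogn, Ctr0 and Ctr1, and 6.49%, 5.63%, 5.37% and 4.26% in frontal cortex. With all libraries of 1 number left out, each of these 5 calls was lost at least once, Soci without number 4, hippocampal Cogn without 1, 2 or 4, hippocampal Ctr0 without 2 or 4, cortical Ctr0 without 2 or 3 and cortical Ctr1 without 1, 2 or 3, at log2 changes of -0.75 to -1.18 and adjusted p of 0.0503 to 0.215.

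Markers of other cells moved with phase as well. In hippocampus all 6 choroid plexus genes fell in day libraries, with sums of 1.73 to 895 CPM in day and 11.2 to 2819 CPM at night, and all 6 oligodendrocyte genes fell, while all 10 border macrophage genes rose. Of 8 astrocyte genes 7 fell in each region, and the other, Slc1a3, rose in hippocampus. With the choroid plexus score as a covariate the log2 change of Lpl in hippocampus was -0.80 (edgeR, adjusted p = 0.000176), and in frontal cortex -0.68. With the scores of 6 other cell types together it was -0.66 in hippocampus, where it no longer passed (adjusted p = 0.176), and -1.05 in frontal cortex (adjusted p = 0.000519). The choroid plexus setting was added after the data were seen, and the part of these cells in the change was otherwise not tested.

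Spp1 encodes osteopontin, a secreted matrix protein that binds integrins and CD44. In hippocampus its day libraries were 1.19, 1.64 and 2.84 CPM (lowest, median and highest) and its night libraries 1.06, 2.16 and 14.6 CPM. The medians were close, and 5 night libraries stood above all day libraries. The log2 change was -1.02 ± 0.32 (SE), adjusted p = 0.0105 in edgeR. In frontal cortex the day libraries were 0.457, 1.22 and 2.84 CPM and the night libraries 0.489, 1.36 and 10.6 CPM. The log2 change there of -0.63 ± 0.35 (SE), adjusted p = 0.146 in edgeR, did not pass. It passed in 2 of 19 alternatives.

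High Spp1 was found in few libraries. Only 7 of 64 were above 3 CPM, a limit set after the values were seen, and all 7 were night libraries of Ctr0 or Ctr1. The 4 replicates of hippocampal Night Ctr0 were 1.71, 12.1, 14.6 and 1.68 CPM, those of Night Ctr1 2.59, 3.53, 5.70 and 4.38 CPM. In frontal cortex Night Ctr0 gave 1.01, 10.6, 2.45 and 1.66 CPM, and Night Ctr1 gave 1.05, 2.58, 5.83 and 1.92 CPM. Replicate 2 of Night Ctr0 and replicate 3 of Night Ctr1 were above 3 CPM in both regions, and the labels do not say whether libraries of one number come from one animal. In the other 12 groups no library was above 2.84 CPM.

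The size of the day-night change of Spp1 in hippocampus depended on these libraries. The change passed in 14 of 20 alternatives, and 13 of 16 day libraries were below the night median. A setting without Night Ctr0 replicates 2 and 3 was added after the values were seen. There the change was -0.37 (edgeR, adjusted p = 0.140) in hippocampus and -0.12 (adjusted p = 0.778) in frontal cortex. In hippocampus these were the 2 highest night libraries, so leaving them out had to shrink the change. Without all libraries numbered 2 it was -0.82 (adjusted p = 0.0871) in hippocampus. Within Ctr0, at 4 against 4 libraries, Spp1 fell in day by 1.87 (adjusted p = 0.0139) in hippocampus and 1.97 (adjusted p = 0.0338) in frontal cortex on the log2 scale. In Ctr1 the changes were -1.28 (adjusted p = 0.0838) and -1.26 (adjusted p = 0.188), which did not pass. In Soci the estimates had the other sign, 0.27 (adjusted p = 0.788) and 1.295 (adjusted p = 0.164), and in Cogn they were -0.12 (adjusted p = 0.936) and 0.26 (adjusted p = 0.839), none of them past the test. The cortical value in Ctr0 was -0.52 (adjusted p = 0.701) without replicate 2, and the hippocampal one was -1.43 (adjusted p = 0.0815) without replicate 3 and -1.52 (adjusted p = 0.164) without replicate 2. The cortical call was lost as well without replicate 3 (-2.47, adjusted p = 0.121) or 4 (-2.22, adjusted p = 0.145). The low counts of Spp1 and the overlap with Gm42793 limit these values.

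**Figure D3:**
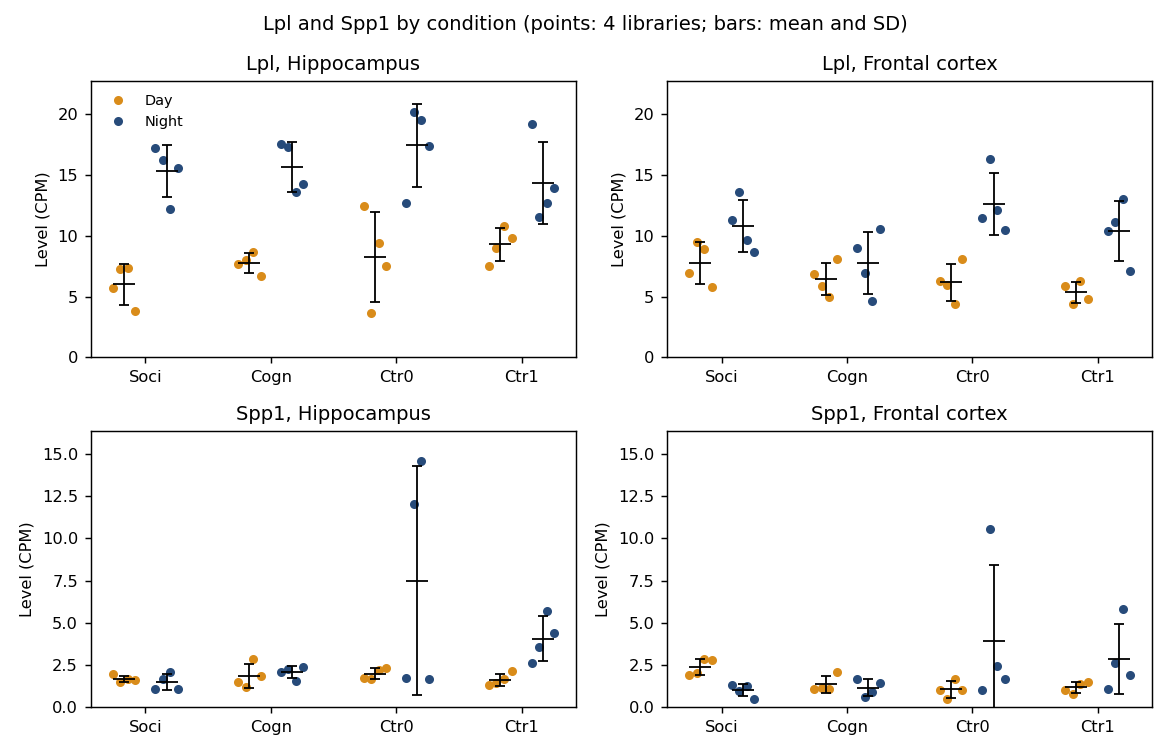
Lpl and Spp1 in CPM by condition in hippocampus and frontal cortex, with day and night libraries as points (4 per group) and bars for the mean and SD; the lower SD bar of Spp1 in cortical Night Ctr0 is cut at 0. Night points of Lpl lie above day points in all conditions of hippocampus and in cortical Ctr0 and Ctr1. In cortical Soci and Cogn they overlap. Spp1 is high in single night libraries of Ctr0 and Ctr1, up to 14.6 CPM.

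TREM2 is a surface receptor for lipids and apolipoproteins, and TYROBP (DAP12) is the membrane adaptor that passes its signal to the kinase SYK. Tyrobp in hippocampus was 83.9, 101 and 142 CPM (lowest, median and highest) in day and 77.5, 96.9 and 111 CPM at night. In frontal cortex it was 89.4, 109 and 166 CPM and 75.2, 89.6 and 147 CPM. The groups overlapped in both regions, although 15 of 16 cortical day libraries were above the night median. The log2 changes were 0.19 ± 0.06 (SE), adjusted p = 0.0145, and 0.25 ± 0.09 (SE), adjusted p = 0.0232 in edgeR. They were small and they depended on the scaling, since with library totals alone they were 0.02 (adjusted p = 0.931) and 0.17 (adjusted p = 0.208). The hippocampal call was lost without all libraries numbered 2 (0.08, adjusted p = 0.382), 3 (0.15, adjusted p = 0.0709) or 4 (0.18, adjusted p = 0.0524), and the cortical one without those numbered 1 (0.20, adjusted p = 0.152), 2 (0.18, adjusted p = 0.142) or 3 (0.25, adjusted p = 0.0648). With the border macrophage score as a covariate the values were 0.03 (adjusted p = 0.905) and 0.18 (adjusted p = 0.348).

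Trem2 was steady. Its hippocampal libraries were 271, 308 and 364 CPM in day and 254, 308 and 361 CPM at night, and its cortical ones 292, 335 and 411 CPM and 259, 317 and 396 CPM. The log2 changes were 0.06 (95% interval -0.03 to 0.15) and 0.05 (-0.06 to 0.17), with adjusted p of 0.321 and 0.464 in edgeR. Both intervals leave out a change of the size seen for Lpl.

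Under TMM scaling most genes that act with TREM2 and TYROBP were higher in day libraries in both regions, which library totals alone did not show in hippocampus. Of 16 such genes (proximal kinases, adaptors, phosphatases and the proteases that cleave TREM2), 13 rose and none fell in day libraries of hippocampus, and 11 rose and 2 fell in frontal cortex, with median log2 changes of 0.21 and 0.19. The share past the test was 81.25% in each region, beside 42.1% and 41.9% over all genes. Inpp5d, the lipid phosphatase SHIP1 that restrains the pathway, rose by 0.44 and 0.40, and Adam10, a sheddase of TREM2, by 0.42 and 0.39. The kinases Lyn and Syk rose in both regions, Lyn by 0.42 and 0.36 and Syk by 0.42 and 0.38. The 2 cortical genes that fell, named after their values were seen, were Cd33, an inhibitory receptor (-0.26), and Hcst, the adaptor DAP10 (-0.41). With library totals alone none of the 16 passed in hippocampus, and 5 rose and 2 fell in frontal cortex. That scaling moved the median over all genes from 0.02 to -0.14 and from -0.02 to -0.09, and relative to it the list stood at 0.18 and 0.20, against 0.19 and 0.20 under TMM. Homeostatic microglia genes rose in the same comparisons, 12 of 15 in hippocampus and 9 of 15 in frontal cortex, with medians of 0.28 and 0.24, and 2 and 3 of them with library totals alone. Under TMM their share past the test was 80% and 60%, beside the same 42.1% and 41.9%.

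APOE is the main apolipoprotein of the brain and a ligand of TREM2. Hippocampal libraries of Apoe were 119, 222 and 292 CPM (lowest, median and highest) in day and 141, 217 and 283 CPM at night, and cortical ones 153, 199 and 381 CPM and 114, 191 and 297 CPM. The log2 changes were 0.04 ± 0.11 (SE), adjusted p = 0.779, and 0.16 ± 0.12 (SE), adjusted p = 0.310 in edgeR, so neither passed. Apoe passed in 1 of the 8 comparisons within a condition, cortical Soci, where day libraries were 284, 381, 249 and 183 CPM and night libraries 204, 119.6, 198 and 114 CPM. The day mean was higher by 0.79 on the log2 scale (adjusted p = 0.0359), but 1 day library lay within the night range, and without replicate 2 the change was 0.47 (adjusted p = 0.368). The call was lost also without replicate 1, 3 or 4, at 0.83 to 0.96 (adjusted p of 0.0567 to 0.106). That day replicate 2, at 381 CPM, also had the highest sum of 7 neutrophil and monocyte genes of all 64 libraries, 129.6 CPM where the others reached at most 61.8, and its part in the value was not tested.

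AXL is a receptor of the TAM family that binds phosphatidylserine on dying cells through GAS6 and PROS1. In frontal cortex Axl was 12.7, 16.7 and 26.7 CPM (lowest, median and highest) in day libraries and 11.5, 21.3 and 38.6 CPM at night, and 6 night libraries were above the highest day library. The log2 change was -0.36 ± 0.14 (SE), adjusted p = 0.0332 in edgeR. Hippocampal libraries were 10.3, 17.1 and 24.3 CPM and 11.5, 19.3 and 29.4 CPM, with a log2 change of -0.18 ± 0.12 (SE), adjusted p = 0.232. The change in hippocampus minus that in frontal cortex was 0.14 ± 0.19 (SE), adjusted p = 0.882, so the regions were not shown to differ.

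Within conditions, cortical Axl passed in Ctr0 and Ctr1. Night Ctr0 libraries were 21.4, 38.6, 27.04 and 29.5 CPM and Day Ctr0 libraries 15.2, 16.4, 14.9 and 20.5 CPM, without overlap, a log2 change of -0.81 (adjusted p = 0.0213). Night Ctr1 libraries were 18.7, 31.7, 28.6 and 28.5 CPM and Day Ctr1 libraries 13.1, 17.98, 15.5 and 12.7 CPM, also without overlap, a log2 change of -0.86 (adjusted p = 0.0178). In Soci the order was the other way, with 18.8, 11.5, 19.0 and 11.5 CPM at night and 20.1, 26.7, 25.1 and 16.98 CPM in day, but the log2 change of 0.56 (adjusted p = 0.0973) did not pass. Whether the day-night change of Axl differed among the 4 cortical conditions had an unadjusted p of 8.22e-05 and an adjusted p of 0.250 in edgeR, where 0.00616% of all genes (1 gene) passed, and an adjusted p of 0.00533 in DESeq2. Without all libraries numbered 2, 3 or 4 the calls within Ctr0 and Ctr1 were lost, at -0.63 to -0.91 and adjusted p of 0.0721 to 0.156. The change over pooled conditions did not pass without all libraries numbered 1 (-0.41, adjusted p = 0.0596), 3 (-0.33, adjusted p = 0.137) or 4 (-0.31, adjusted p = 0.117).

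**Figure D4:**
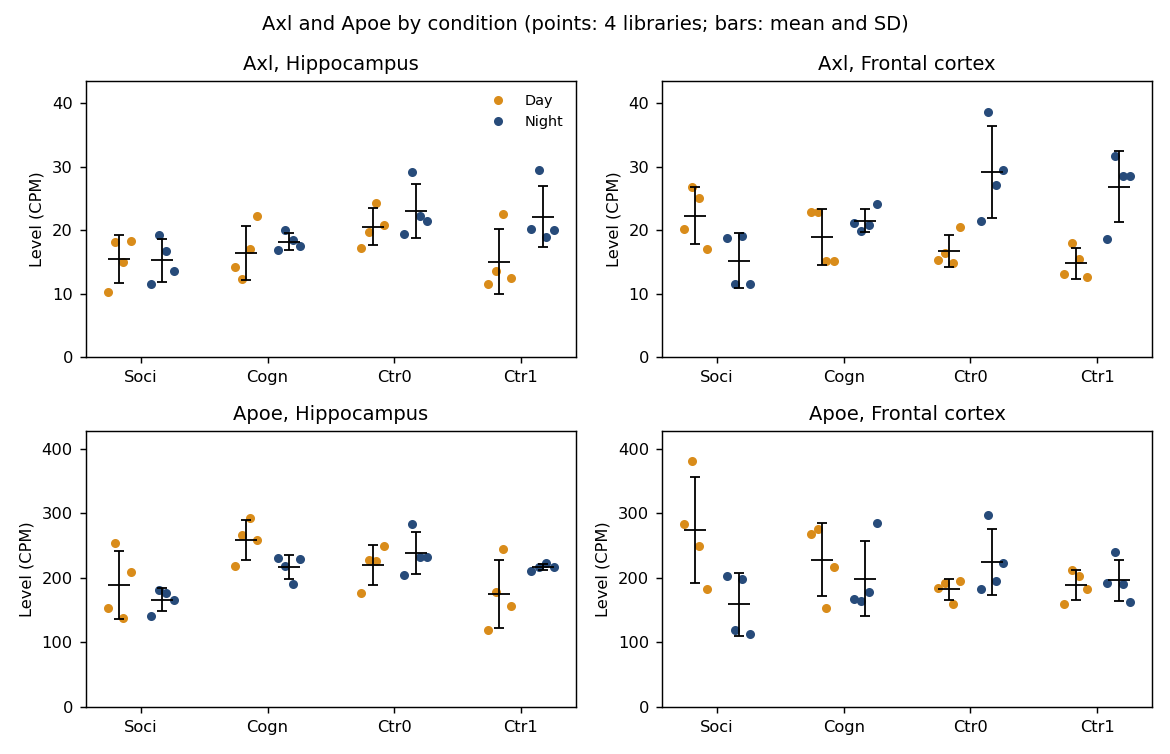
Axl and Apoe in CPM by condition in hippocampus and frontal cortex, with day and night libraries as points (4 per group) and bars for the mean and SD. Cortical Axl lies higher at night in Ctr0 and Ctr1, while cortical Soci has the day libraries higher for both genes, 22.2 against 15.2 CPM on average for Axl and 274.2 against 159 CPM for Apoe.

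Cd9, a tetraspanin of the cell surface, was 105, 116 and 149.7 CPM in hippocampal day libraries and 103, 138 and 164 CPM at night (lowest, median and highest), with 5 night libraries above all day libraries. Its log2 change of -0.15 ± 0.06 (SE), adjusted p = 0.0526 in edgeR was just short of the threshold, and it passed in 8 of 20 alternatives, among them DESeq2 (-0.18, adjusted p = 0.0175). In frontal cortex the log2 change was -0.09 ± 0.09 (SE), adjusted p = 0.453. Itgax, which encodes the integrin chain CD11c of dendritic cells and activated microglia, gave log2 changes of 0.14 and -0.07 (adjusted p = 0.234 and 0.598). In frontal cortex Itgax passed in 2 of 19 alternatives, with values from -0.63 to -0.0077. Clec7a, the receptor dectin-1 for beta-glucans, gave 0.00 and -0.01 (adjusted p = 0.992 and 0.971), with 95% intervals of -0.26 to 0.25 and -0.28 to 0.27. Its cortical values ran from -0.53 to 0.095 over 19 alternatives, of which it passed in 1. Cst7, the protease inhibitor cystatin F, gave 0.06 and -0.12 (adjusted p = 0.780 and 0.671), and its intervals of -0.26 to 0.39 and -0.51 to 0.28 are wide, with few reads counted.

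Ligands, receptors and partners of the 10 proteins were followed in a list of 20 genes. In day libraries 8 rose and 3 fell in hippocampus, and 9 rose and 3 fell in frontal cortex, with medians of 0.00 and -0.01 beside 0.02 and -0.02 over all genes. The share past the test was 55% and 60%, beside 42.1% and 41.9% over all genes. Ctsc, a protease that cystatin F inhibits, rose by 0.52 and 0.44 on the log2 scale, and Itgb5, an integrin chain that binds osteopontin, by 0.51 and 0.57. Abca1, which loads lipid onto apolipoproteins, rose by 0.34 in hippocampus and 0.24 in frontal cortex. Tyro3, a TAM receptor beside AXL, fell by 0.53 in frontal cortex. Angptl4, a secreted inhibitor of lipoprotein lipase that was picked out after its values were seen, fell by 0.80 and 0.94 (adjusted p = 0.00179 and 0.000730 in edgeR). With library totals alone 2 of the 20 genes rose and 3 fell in each region.

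A further 28 genes of the disease-associated state were followed, of which 27 were in the table and 24 were tested between day and night. In hippocampus 8 rose and 3 fell, and in frontal cortex 6 rose and 2 fell, with medians of 0.09 and 0.10. That was 45.8% and 33.3% of the genes tested, near or below the 42.1% and 41.9% over all genes. With library totals alone 1 rose and 6 fell in hippocampus and 1 rose and 2 fell in frontal cortex, so the balance between the directions follows the scaling. Relative to the median of all genes the list stood at 0.07 and 0.11 under both scalings. Under TMM the leading genes were Cd74, the invariant chain of MHC class II, with 0.74 in hippocampus, B2m, the light chain of MHC class I, with 0.38 and 0.31, and the lysosomal protease Ctsd with 0.32 and 0.40. Serpine2, a secreted protease inhibitor, rose by 0.24 in frontal cortex. Among the genes that fell was Fabp5, a carrier of fatty acids named after its values were seen, with -0.95 and -0.92 (edgeR, adjusted p = 0.000738 and 0.000727). The other genes that fell, likewise named after their values were seen, were Lgals3 (-0.57) and Csf1 (-0.15) in hippocampus and Cadm1 (-0.18) in frontal cortex.

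Between the regions, with day and night averaged, 2 of the 10 markers passed, where 16.6% of 16069 genes did (10.4% higher in hippocampus, 6.19% lower). Lpl was higher in hippocampus by 0.44 ± 0.09 (SE), adjusted p = 0.000258 on the log2 scale in edgeR. Itgax was lower in hippocampus, with a log2 difference of -0.35 ± 0.07 (SE), adjusted p = 0.000160. The ranges overlapped for both genes, Itgax with 5.08, 7.94 and 10.6 CPM and 6.02, 7.03 and 10.3 CPM in hippocampus (day and night, lowest, median and highest) and 7.11, 9.16 and 14.4 CPM and 6.92, 9.78 and 14.6 CPM in frontal cortex. Both calls were kept in all 14 alternatives of this comparison. Spp1 was higher in hippocampus by 0.48 without passing (adjusted p = 0.178), but it passed with phase, condition and replicate number as a block (0.55, adjusted p = 0.0026 in edgeR), 1 of 14 alternatives. The adjusted p of the other 7 genes was 0.162 or more.

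At night alone both genes passed, Lpl with 0.59 ± 0.12 (SE), adjusted p = 0.000325 and Itgax with -0.43 ± 0.10 (SE), adjusted p = 0.000845, where 13.9% of all genes passed. In day libraries the differences had the same sign, 0.29 (adjusted p = 0.354) for Lpl and -0.26 (adjusted p = 0.238) for Itgax in edgeR, and neither passed, where 0.00622% of all genes (1 gene) did. None of the 10 markers passed the test of a different day-night change between the regions, Lpl having the lowest adjusted p, 0.632, and the number at an unadjusted p under 0.05 was 0. DESeq2 called none either. All 6 choroid plexus genes were higher in hippocampus, with sums of up to 2819 CPM there and up to 446.5 CPM in frontal cortex, and 5 of 6 tested neutrophil and monocyte genes were lower there. Of 26 other genes of the disease-associated state tested, 1 was higher in hippocampus and 8 were lower. A part of these cells in the differences was not tested.

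Among the 4 conditions no marker passed in either region. In hippocampus, where 0.0178% of 16826 genes (3 genes) passed, 4 markers had an unadjusted p under 0.05, Spp1 (0.00358), Apoe (0.0041), Clec7a (0.00588) and Axl (0.0136), all with an adjusted p of 0.688 in edgeR. DESeq2 called none of them at an adjusted p of 0.05, and library totals alone called Apoe (adjusted p = 0.0443). In frontal cortex, where 0% of 16238 genes passed, none of the 10 had an unadjusted p under 0.05, and DESeq2 called none. Of the 60 pairwise comparisons of conditions and markers in each region none passed, beside 0.00297% over all genes in hippocampus and 0% in frontal cortex, and 14 and 3 had an unadjusted p under 0.05. Of those 14, hippocampal Soci against Ctr0 gave 6, where 8.75% of all genes had such a p. In that pair all 10 markers had lower estimates in Soci, with log2 differences from -1.32 for Spp1, -0.57 for Clec7a and -0.52 for Axl to -0.01 for Trem2, and the adjusted p was 0.568 or more. No marker had a day-night change that differed among conditions in either region, where 0% of genes passed in hippocampus, and in DESeq2 only cortical Axl passed. The lowest unadjusted p there was that of Spp1 (0.013), and in frontal cortex Axl, Spp1 (0.00129), Apoe (0.015) and Clec7a (0.0217) were under 0.05.

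The order of the 16 groups differed from marker to marker. Lpl ran from 17.5 ± 3.41 CPM in hippocampal Night Ctr0 to 5.33 ± 0.880 CPM in cortical Day Ctr1 (mean ± SD, n = 4). Spp1 ran from 7.50 ± 6.79 CPM in hippocampal Night Ctr0 to 0.984 ± 0.364 CPM in cortical Night Soci, so both had their highest group mean in the same group. For Axl the ends were 29.1 ± 7.18 CPM in cortical Night Ctr0 and 14.8 ± 2.45 CPM in cortical Day Ctr1, and for Apoe 274.2 ± 82.3 CPM in cortical Day Soci and 159 ± 48.7 CPM in cortical Night Soci. Apoe thus had its highest and its lowest group in Soci of one region. Itgax went from 11.3 ± 2.29 CPM in cortical Night Ctr0 down to 6.78 ± 0.564 CPM in hippocampal Night Soci, and Clec7a from 10.6 ± 2.75 CPM in hippocampal Night Ctr0 to 6.51 ± 3.21 CPM in cortical Night Cogn. Cst7 went from 1.24 ± 0.362 CPM in hippocampal Night Ctr1 to 0.753 ± 0.220 CPM in hippocampal Night Soci, and Cd9 from 159.7 ± 32.8 CPM in cortical Night Soci to 116 ± 19.1 CPM in hippocampal Day Soci. Tyrobp ran from 123 ± 32.4 CPM in cortical Day Soci to 85.3 ± 10.4 CPM in cortical Night Ctr1, and Trem2 from 354 ± 51.1 CPM in cortical Night Soci to 296 ± 8.96 CPM in hippocampal Night Cogn. In each of the 10 orders every group's mean was within the larger of both SDs from the mean of the next group. Because the groups were sorted by their means, such steps are small by construction. They do not speak to groups farther apart in the order.

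Across libraries the markers varied in blocks. To take out differences between groups, each library's deviation from its group mean in log2 CPM was used, and the 45 pairs of markers were correlated over the 32 libraries of each region, with permutation p-values adjusted over the 45 pairs. By Pearson's r all pairs that passed were positive, 6 in hippocampus and 9 in frontal cortex, and 4 passed in both. The pairs shared by both regions linked Trem2 with Tyrobp (Pearson's r of 0.73 and 0.84), Tyrobp with Cd9 (0.72 and 0.87) and Trem2 with Cd9 (0.60 and 0.79), and Apoe with Axl (0.67 and 0.78). Spearman's rho for these 4 pairs was 0.70 and 0.83, 0.67 and 0.82, 0.64 and 0.81, and 0.66 and 0.77, and the largest adjusted permutation p of their r was 0.00981. In hippocampus Cst7 also went with Clec7a (0.63) and Itgax (0.62), and in frontal cortex Apoe, Clec7a, Itgax and Axl went together in 5 further pairs, with r of 0.55 to 0.63. Lpl and Spp1 were in none of these pairs.

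These correlations share the libraries, their depth and the scaling. By Spearman's rho 8 and 11 pairs passed, which were the pairs above and 4 more. The added pairs in hippocampus were Itgax with Axl (rho of 0.51, adjusted permutation p = 0.0474) and, as the only negative pair, Trem2 with Spp1 (rho of -0.56, adjusted permutation p = 0.0439; r of -0.56, adjusted permutation p = 0.0581). In frontal cortex they were Trem2 with Itgax (rho of 0.49, adjusted permutation p = 0.0372) and Lpl with Clec7a (rho of 0.50, adjusted permutation p = 0.0400). By either measure, each of the pairs past the test kept the sign of its r without the 2 libraries farthest from the median. With library totals alone 25 and 20 pairs passed, and without all libraries of one number the counts went down to 0 in hippocampus (without replicate 4) and 4 in frontal cortex (without replicate 3). The smallest p that 100000 permutations can give is 1e-05.

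**Figure D5:**
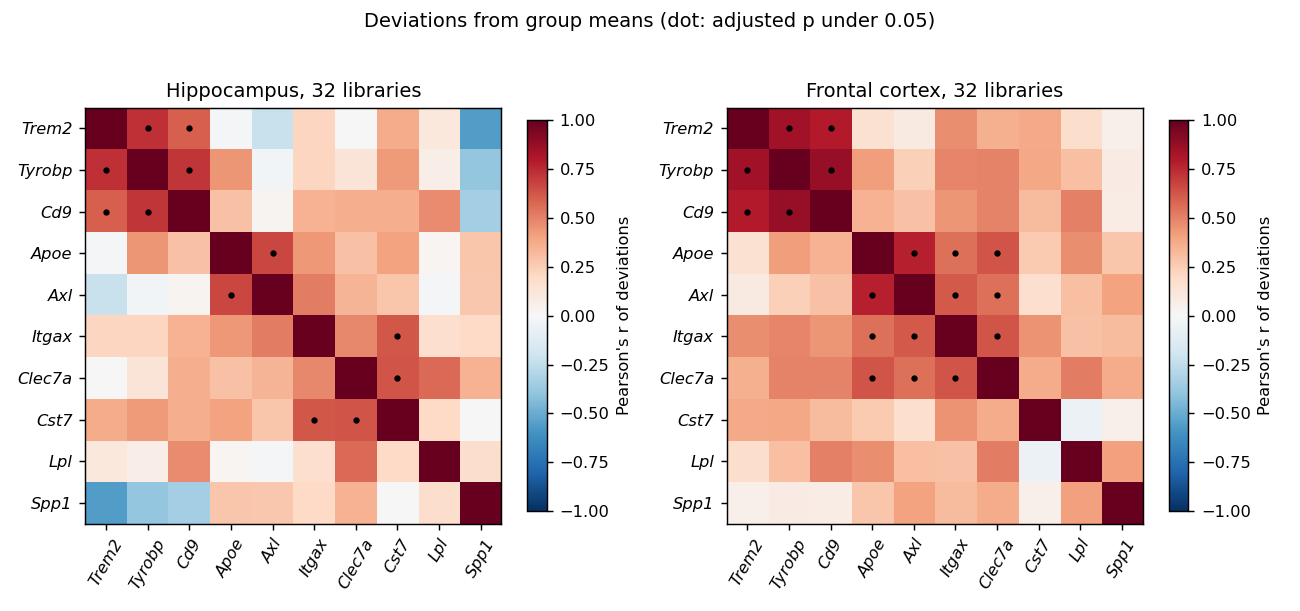
Pearson's r between the 10 markers over 32 libraries of hippocampus and 32 of frontal cortex, from deviations of log2 CPM from the group means, with a colour scale from -1 to 1. Trem2, Tyrobp and Cd9 form one block with r of 0.60 to 0.87 and Apoe and Axl another pair with 0.67 and 0.78, in both regions.

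Over all 64 libraries, the genes most like each marker by the same deviations were found among 11007 genes with a mean of at least 4 CPM, as a description without a test. Tyrobp was most like Cst3 (r of 0.96), C1qa (0.95) and Itm2c (0.94), which are abundant genes of microglia. Trem2 was most like Sash3 (0.90), Csf1r (0.89) and Itgb2 (0.89), and Cd9 most like Calr (0.91), Cap1 (0.89) and Sparc (0.88). Apoe, Axl and Itgax had genes of MHC class II as their nearest neighbours. These were H2-Ab1, Cd74 and H2-Eb1 for Apoe (0.75, 0.75 and 0.72), H2-Ab1, H2-Aa and Apoe itself for Axl (0.72 each), and H2-Aa, H2-Eb1 and Ly9 for Itgax (0.69, 0.69 and 0.68).

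The remaining markers had weaker neighbours. Clec7a was nearest to Klf6 (0.67), 1190002N15Rik (0.65) and Spty2d1 (0.64), and Spp1 to Thbs1 (0.63), Gm49339 (0.57) and Hmox1 (0.56). Lpl was nearest to Plpp1 (0.62), Slc12a2 (0.61) and Nrp1 (0.56). The genes near Cst7 included Rnf128 (0.52) and Itgax (0.51), with a level of about 1 CPM.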

How the data were processed

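The authors aligned reads (single-end, rRNA-depleted) with STAR 2.7.3a to GRCm38.p5 and counted them per gene with featureCounts (Subread 2.0.0), and deposited raw counts of 49671 genes in 64 libraries. The strand setting is not given in the sources used here. RNA input is 50 ng in the labels and 100 ng in the methods. Gene symbols and exon lengths were taken from GENCODE M21 (49326 genes matched), and 0 columns were left unmapped. Groups followed the titles of the libraries. Totals of 10.2 to 84.5 M counts set the precision of each value.

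Counts were scaled by TMM, filtered with filterByExpr and tested with edgeR 4.0.16 (quasi-likelihood F test; R 4.3.3; robust, Benjamini-Hochberg over all genes tested, threshold 0.05), after tests on simulated data. Log2 changes are day relative to night and hippocampus relative to frontal cortex, with SE from the F statistic and 95% intervals of 1.96 SE. Library deviations of log2 CPM (prior count 2) gave the correlations, with 100000 permutations (two-sided; scipy 1.17.1, numpy 2.4.6, pandas 2.3.3). Dixon's test was read at 0.829.

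All 10 markers are named, and from each other list at most 3 genes past the threshold with the largest log2 change and a mean of at least 4 CPM. The nearest genes of a marker are the 3 with the highest r, of which 1 is not reported here. Members and lists were chosen with earlier results of these data known. Alternatives were DESeq2 1.42.0, median-of-ratios scaling, library totals alone, other count filters, covariates, the replicate block and left-out libraries. Settings with the choroid plexus or oligodendrocyte score, or without Night Ctr0 replicates 2 and 3, were added after the data were seen.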

Additional observations from a re-analysis of the deposited data

Results flagged for a closer look

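In 13 of 160 sets of 4 libraries (10 markers in 16 groups) 1 library stood apart from the other 3 by Dixon's test, where chance gives about 8. Cortical Night Cogn replicate 4 stood apart for 3 markers, with Apoe at 285 CPM (the others 164 to 178 CPM), Tyrobp at 147 CPM (75.2 to 85.8 CPM) and Clec7a at 11.3 CPM (4.32 to 5.48 CPM). Cortical Day Cogn replicate 1 stood apart for Tyrobp, 131 CPM against 108 to 109.6 CPM, and for Cd9, 154 CPM against 129.7 to 133 CPM, and replicate 4 of that group for Spp1, 2.10 CPM against 1.06 to 1.10 CPM.

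Spp1 in cortical Night Ctr0 replicate 2 was 10.6 CPM, where the other replicates were 1.01 to 2.45 CPM. Cst7 in cortical Night Ctr1 replicate 4 was 1.80 CPM against 0.730 to 0.909 CPM, and Trem2 in cortical Day Ctr0 replicate 1 was low, 292 CPM against 331 to 337 CPM. In hippocampus the libraries apart were Night Soci replicate 4 for Tyrobp (108 CPM against 88.5 to 90.2 CPM), Night Ctr1 replicate 2 for Axl (29.4 CPM against 19.0 to 20.1 CPM), Day Soci replicate 2 for Cd9 (145 CPM against 105 to 108 CPM) and Day Ctr1 replicate 3 for Cd9 (132 CPM against 115 to 118 CPM). No marker passed the test of a difference between regions in its day-night change.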

How the results depend on the processing

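The day-night calls of Lpl were kept in 19 of 20 alternatives in hippocampus and all 19 in frontal cortex, and its region call and that of Itgax in all 14. Of 656 alternative values of single markers, 554 kept their direction and their side of the threshold, 33 lost the call, 18 gained one and 51 changed sign, all 51 for markers that had not passed. The count of markers past the day-night test was 3 in each region in the main fit. In hippocampus it was 0 with 6 cell type scores and 1 with the choroid plexus score. In frontal cortex it was 5 with 6 cell type scores and 1 with the library total, the astrocyte score or the oligodendrocyte score as a covariate. Over the 19 cortical alternatives Clec7a passed in 1, Itgax in 2 and Spp1 in 2. Their log2 values ran from -0.53 to 0.095, from -0.63 to -0.0077 and from -1.57 to -0.12. Without replicate 1, 2, 3 or 4 the count ran from 1 to 3 in hippocampus and from 1 to 2 in frontal cortex. With library totals alone 1 marker differed among hippocampal conditions and 3 pairs of conditions passed, and in DESeq2 the day-night change of 1 marker differed among cortical conditions. Genes of the partner lists past the test numbered 35 in hippocampus (12 with library totals alone, 23 to 37 without a replicate) and 33 in frontal cortex (15 with library totals alone). Correlated pairs numbered 6 in hippocampus (25 with library totals alone, 0 to 7 without a replicate) and 9 in frontal cortex (20 with library totals alone, 15 with median-of-ratios scaling, 4 to 11 without a replicate). Except for the settings that use fewer libraries, the cause was not tested.

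Sign changes of the log2 values were as follows. In the hippocampal day-night comparison they were with library totals alone Apoe -0.11, Trem2 -0.10, Cst7 -0.098 and Itgax -0.0065, with the border macrophage score Apoe -0.42, Trem2 -0.0011, Cst7 -0.36 and Itgax -0.11, with 6 cell type scores Apoe -0.17, Cst7 -0.13 and Clec7a 0.16, without the libraries over 50 M counts Cst7 -0.058, with the oligodendrocyte score Cst7 -0.038, with the replicate block Clec7a 0.012, with condition as a covariate Clec7a 0.0048, without Night Ctr0 replicates 2 and 3 Clec7a 0.11 and with the choroid plexus score Clec7a 0.27. In frontal cortex they were with the border macrophage score Apoe -0.31 and Trem2 -0.0035, with 6 cell type scores Apoe -0.093 and Trem2 -0.13, with library totals alone Trem2 -0.016, with the astrocyte score Trem2 -0.024, with median-of-ratios scaling Clec7a 0.00048, with the replicate block Clec7a 0.0046, in DESeq2 Clec7a 0.0024, with condition as a covariate Clec7a 0.0051, with the library total as a covariate Clec7a 0.056, without Night Ctr0 replicates 2 and 3 Clec7a 0.095, with the choroid plexus score Clec7a 0.080 and with the oligodendrocyte score Clec7a 0.0051. Between regions they were with library totals alone Apoe -0.088 and Clec7a -0.071. Without 1 replicate number, the hippocampal values ran over Apoe -0.043 to 0.073, Trem2 -0.016 to 0.050, Cst7 -0.092 to 0.14 and Clec7a -0.080 to 0.036, the cortical ones over Cst7 -0.31 to 0.081 and Clec7a -0.10 to 0.046, those between regions over Apoe -0.024 to 0.087 and Clec7a -0.014 to 0.052, and those of the difference in day-night change over Tyrobp -0.17 to 0.0025, Cst7 -0.014 to 0.29 and Clec7a -0.089 to 0.016.

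Whether libraries of one replicate number are paired was not settled by these values. Same-number libraries of the 2 regions had a median r of 0.009, from -0.74 to 0.78. For other numbers the median was -0.001. Between day and night, same-number libraries had a median r of -0.017 in hippocampus and 0.125 in frontal cortex. Other numbers gave -0.003 and -0.052. Deviations from the group means correlated by over 0.1 in 12 of 32 pairs of regions, 4 of 16 pairs of day and night in hippocampus and 8 of 16 in frontal cortex. A library's best match had its own number in 20 of 64 cases in the other region and 14 of 64 in the other phase. Each library had 4 candidates, 1 of them with its own number. With the replicate number as a block the day-night comparisons again gave 3 markers in each region, the region comparison 2, and no call of a marker changed. A block of phase, condition and number added Spp1 between regions (0.55, adjusted p = 0.0026 in edgeR). Cst7 got no value under a mean of at least 1 CPM, and few counts limit Cst7 and Spp1.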

Other observations

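Over all genes, 23.5% rose and 18.7% fell in day libraries of hippocampus, and 20.7% rose and 21.3% fell in frontal cortex. Border macrophage genes rose in day libraries of both regions, 10 of 10 in hippocampus and 7 of 10 in frontal cortex. Lyve1, a hyaluronan receptor, rose by 1.96 and 2.00 on the log2 scale and Cd163, a scavenger receptor for haemoglobin, by 1.33 and 1.17 (edgeR). Their sums ran from 945 to 1506 CPM in day and 693 to 1131 CPM at night in hippocampus, and from 972 to 1596 CPM and 783 to 1222 CPM in frontal cortex. Of 8 astrocyte genes 7 fell in day in each region, with Gfap at -1.34 and Aqp4 at -1.13 in hippocampus and Aldoc at -1.52 in frontal cortex, while Slc1a3, a glutamate transporter, rose by 0.40 in hippocampus (edgeR, adjusted p = 0.000124). Neuron genes fell in 1 of 7 cases in hippocampus and 6 of 7 in frontal cortex, oligodendrocyte genes in 6 of 6 and 3 of 6, and endothelial genes in 3 of 5 and 0 of 5, where 2 cortical endothelial genes had an unadjusted p under 0.05 and DESeq2 called none. Dendritic cell genes, of which 4 of 7 were tested, rose in 1 case in each region. Of the 4 neutrophil and monocyte genes tested, 1 rose and 1 fell in hippocampus and 0 passed in frontal cortex, in edgeR or DESeq2 or at an unadjusted p under 0.05. Of the 6 choroid plexus genes 3 were tested in frontal cortex, with the same outcome.

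Genes that respond to tissue dissociation rose in 5 of 9 cases in hippocampus and in 3 of 9 in frontal cortex, where 2 fell. Their sums of 105 to 153 CPM in day and 87.5 to 125 CPM at night in hippocampus, and 93.8 to 157 and 83.8 to 131 CPM in frontal cortex, overlapped between the phases. The parts of these cells and of the dissociation response in the values of the 10 markers were not tested beyond the covariates named in the report.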
